A study of Mus musculus with 20 samples.

Results

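Cytochromes P450 of families 1 to 4 were followed in livers of mice that carry the *IMP2-2* transgene (tg) and of wildtype mice (wt). A gene belongs here if its annotated symbol begins with Cyp1, Cyp2, Cyp3 or Cyp4 directly followed by a letter. 56 of the 18194 genes that have a probe set of their own on the array do, 3 in family Cyp1, 35 in Cyp2, 5 in Cyp3 and 13 in Cyp4, among them the pseudogene *Cyp4f41-ps*. A gene with more than 1 probe set is given by its brightest, judged on the mean of the 20 arrays, and the rule for membership reads the symbol alone. The tg group holds 10 mice that carry the p62/IMP2-2 transgene, a splice variant of the mRNA-binding protein IMP2, and the wt group holds 10 mice without it. All 20 were 5 weeks old, of the background C57Bl6J/DBA2 and without further treatment in the labels, and snap-frozen liver was hybridized to 1 Affymetrix Mouse Genome array per mouse. The promoter that drives the transgene, the sex of the mice and whether the tg mice are of 1 line are not given in the sources used here. The gene of IMP2 itself, *Igf2bp2*, has no probe set of its own and was not analysed here.

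P450 enzymes are haem proteins of the endoplasmic reticulum that insert oxygen into lipophilic substrates, with electrons from P450 oxidoreductase and cytochrome b5. Families Cyp1 to Cyp3 oxidize drugs, toxins and steroids, and some of their members are switched on by receptors. The aryl hydrocarbon receptor (AhR) acts on Cyp1 genes and the constitutive androstane receptor (CAR) on Cyp2b and Cyp2c genes. The pregnane X receptor (PXR) acts on Cyp3a genes. Family Cyp4 hydroxylates fatty acids at their far end, and its Cyp4a members are targets of the fatty acid sensor PPARα. In mouse liver many P450 genes differ between males and females through the rhythm of growth hormone secretion, and many are stronger around the central vein than around the portal tract.

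Promoter windows from 250 bases before to 50 bases after the annotated start are shown for 4 members on which the results below turn: *Cyp4f16*, which was higher in tg livers, its relative *Cyp4f13*, which had lower values, and *Cyp2b9* and *Cyp2d9*, a female-biased and a male-biased gene that moved against each other on single arrays. The sequences are from RefSeq (GRCm38.p6) and run 5′ to 3′ on the strand of the gene. Capitals mark matches on either strand to TTCNNNGAA, the motif of STAT5, to AGGTCA, the half-site of nuclear receptors, to GCGTG, the core of the AhR element, and to TATAAA, the TATA box.
*Cyp4f16*, chr17:32536307-32536606, plus strand: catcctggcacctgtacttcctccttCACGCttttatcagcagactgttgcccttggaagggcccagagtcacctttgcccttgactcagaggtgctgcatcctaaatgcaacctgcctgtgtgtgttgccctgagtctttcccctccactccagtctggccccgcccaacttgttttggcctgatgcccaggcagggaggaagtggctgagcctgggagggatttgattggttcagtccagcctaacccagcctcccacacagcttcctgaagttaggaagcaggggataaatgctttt
*Cyp4f13*, chr17:32947312-32947611, minus strand: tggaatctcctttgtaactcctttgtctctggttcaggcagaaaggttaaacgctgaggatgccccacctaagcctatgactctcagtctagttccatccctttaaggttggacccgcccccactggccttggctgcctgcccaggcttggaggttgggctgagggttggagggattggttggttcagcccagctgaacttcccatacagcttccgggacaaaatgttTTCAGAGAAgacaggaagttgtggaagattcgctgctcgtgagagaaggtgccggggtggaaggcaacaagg
*Cyp2b9*, chr7:26173159-26173458, plus strand: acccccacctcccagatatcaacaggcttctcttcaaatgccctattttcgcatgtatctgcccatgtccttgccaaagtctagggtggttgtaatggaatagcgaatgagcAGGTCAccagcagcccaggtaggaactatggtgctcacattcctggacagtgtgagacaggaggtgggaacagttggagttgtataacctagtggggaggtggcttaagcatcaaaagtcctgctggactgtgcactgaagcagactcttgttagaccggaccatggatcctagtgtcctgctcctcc
*Cyp2d9*, chr15:82452127-82452426, plus strand: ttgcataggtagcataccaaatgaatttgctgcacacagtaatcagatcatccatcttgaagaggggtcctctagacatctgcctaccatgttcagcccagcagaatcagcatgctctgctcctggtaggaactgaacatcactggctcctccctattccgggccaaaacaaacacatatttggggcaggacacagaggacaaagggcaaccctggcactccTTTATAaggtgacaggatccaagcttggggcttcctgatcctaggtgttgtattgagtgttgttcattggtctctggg
The *Cyp4f16* window holds GCGTG, read on the other strand and beginning 224 bases before the start, and the *Cyp4f13* window holds TTCNNNGAA at 22 bases before it. *Cyp2b9* has AGGTCA at 138 bases before the start and *Cyp2d9* has TATAAA, read on the other strand, at 28 bases before it. RefSeq gave 49 such windows for 43 of the 56 members. TTCNNNGAA lay in 6.12% of these and in 8.3% of all 32851 windows of the same length, AGGTCA in 26.5% and 16.3%, GCGTG in 24.5% and 32.4%, and TATAAA in 36.7% and 13.6%. A match is a description of the sequence and no evidence of binding. No window was found in the RefSeq table for *Cyp4a31*, *Cyp4a14*, *Cyp4a12a* and *Cyp2d13*.

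Values are log2 signals after RMA normalization, and their size cannot be compared between probe sets. Array medians ran from 4.46 to 4.55, and the number of arrays limits the precision. The median of all probe sets lies at 4.53. 14 of the 56 members had both genotype means under it, so that a lack of change cannot be read for them. The wt arrays wt_1407_2 and wt_1420_6, and likewise wt_1407_5 and wt_1420_7, were nearly identical over all probe sets (SD of the log2 difference 0.168 and 0.172), so wt means ± SD count each pair once (n = 8), while ranges, medians and the limma fit use all 10. tg_1386_9 and wt_1386_4 were the closest arrays of all (0.155) although their labels differ, and both were kept under their labels. Nothing in the labels tells mice of 1 litter apart from unrelated mice, so p values measure the spread between these samples. *Alb*, the hepatocyte product albumin, read 14.34 to 14.49 on all arrays. The Y-linked *Eif2s3y* read 8.92 to 9.57 and *Xist*, which silences the second X chromosome of females, 3.51 to 4.74, so that no array had the female pattern of these genes.

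2 of the 56 members rose in tg livers and none passed the threshold downward. The 2 were *Cyp4a31* and *Cyp4f16*, both of family Cyp4 (limma, Benjamini-Hochberg adjusted p under 0.05). They are 3.57% of the members, and over all genes 2.98% were called higher and 0.967% lower. At an unadjusted p under 0.05, limma had 6 members higher and 9 lower, which are 10.7% and 16.1% against 13% and 12.2% of all genes. 24 members had a positive and 32 a negative log2 fold change, with a median of -0.03, where the median of all genes was -0.02. Both shares of calls lie near those of all genes, so the counts do not set the P450 genes apart. By family, the median was -0.03 for Cyp1, -0.09 for Cyp2, 0.16 for Cyp3 and 0.00 for Cyp4. With near-identical wt arrays averaged, limma called 0 members in either direction, as did a Wilcoxon test on all 20 arrays. The same count came out without the 4 arrays tg_1423_2-8_1, tg_1423_2-8_4, wt_1423_2-8_3 and wt_1423_2-8_9, and when tg_1420_4 was left out together with tg_1423_2-8_1 and tg_1423_2-8_4. Calls over all probe sets fell as well, from 850 higher and 299 lower to 69 and 5 without the 4 arrays. They were 158 and 8 without the tg arrays named last, 245 and 31 with averaged wt arrays, and 664 and 297 in the Wilcoxon test. In the Wilcoxon test most calls over all probe sets thus remained. With 2 members called, whether the drop to 0 is particular to the P450 genes cannot be told and was not tested. A p above the threshold does not show that a gene was unaltered, and 7 members (*Cyp2b9*, *Cyp2c23*, *Cyp2c37*, *Cyp3a16*, *Cyp3a44*, *Cyp4a12a* and *Cyp4a14*) had an SD within genotypes above 1 log2 unit, against a median SD of 0.281 over the 56.

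**Figure D1:**
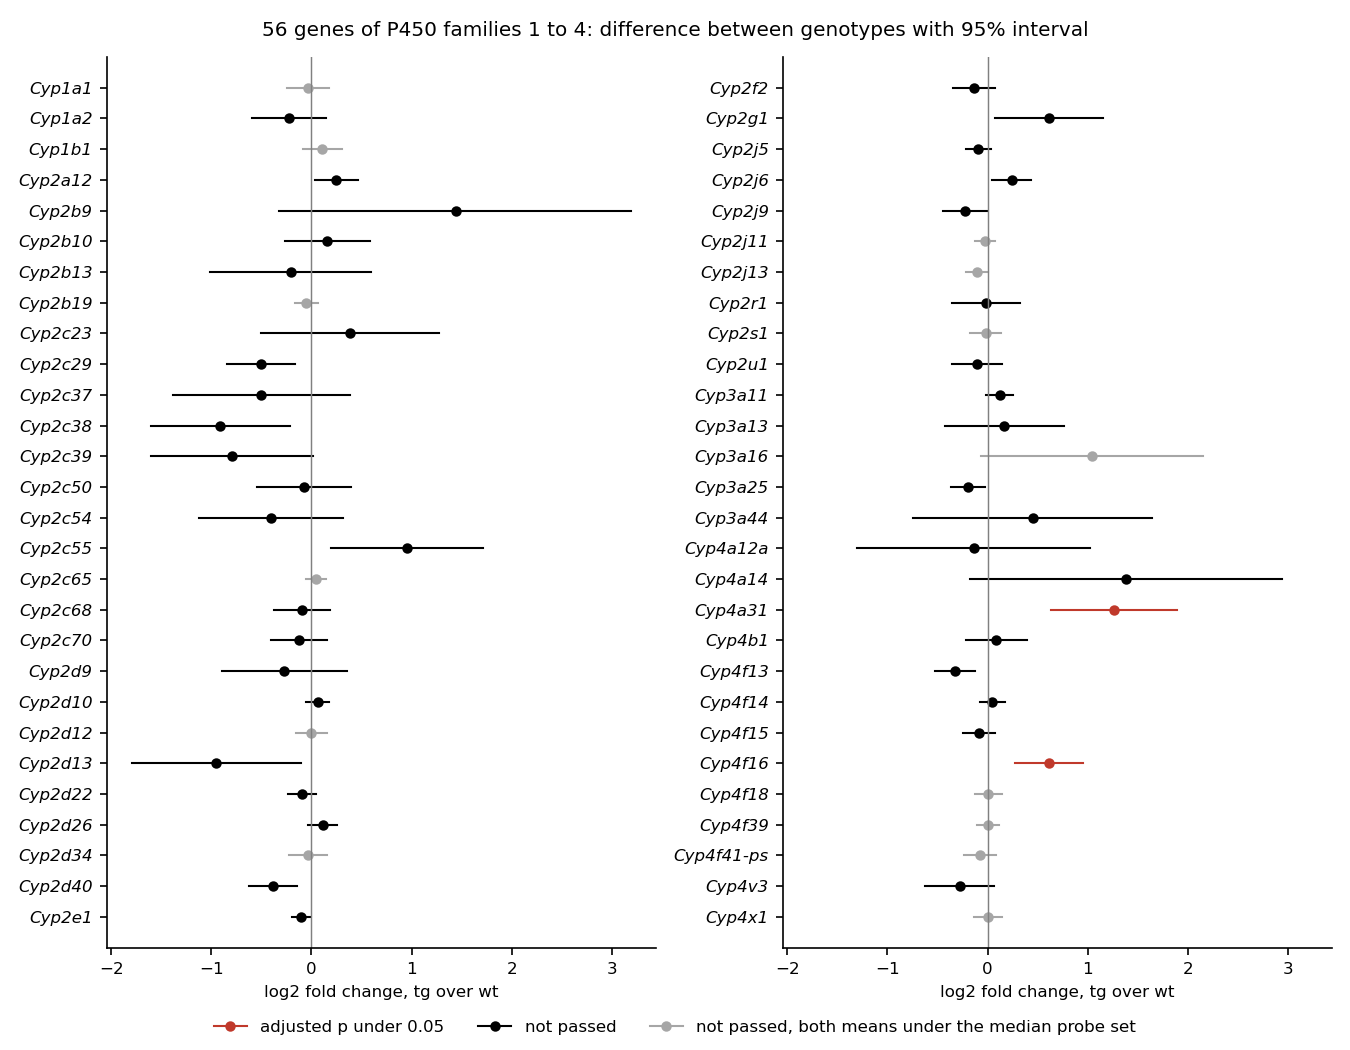
Log2 fold change of tg (n = 10) over wt arrays (n = 10) for each of the 56 P450 genes, with the 95% interval of the limma fit as a line. Red genes passed adjusted p under 0.05, grey genes have both means under the median probe set, and the intervals are widest for *Cyp2b9* (-0.32 to 3.19) and *Cyp4a14* (-0.18 to 2.94).

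*Cyp4a31*, a fatty acid hydroxylase of the PPARα-responsive Cyp4a cluster, was 2.4-fold higher in tg livers. It read 7.13, 8.00 and 9.52 (lowest, median, highest) on the tg arrays and 6.25, 6.80 and 7.75 on the wt arrays, so that 6 of 10 tg arrays lay above every wt array and the rest overlapped. The highest tg values were 9.52 in tg_1423_2-8_1, 9.25 in tg_1423_2-8_4 and 8.95 in tg_1420_4. The means were 8.11 ± 0.88 (SD, n = 10) and 6.96 ± 0.56 (n = 8), and the log2 fold change was 1.26 (SE 0.301, limma adjusted p = 0.0313, permutation p = 0.00128). A second probe set of *Cyp4a31* gave 1.33 (SE 0.382, adjusted p = 0.0619). A probe set shared by *Cyp4a31* and its close relative *Cyp4a10* gave 0.32 (SE 0.336, adjusted p = 0.618), with tg arrays at 8.39 to 10.36 and wt arrays at 7.54 to 10.39. Cyp4a genes are near copies of each other, so the value for a single one is uncertain.

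*Cyp4a14*, the other PPARα-responsive member measured, had one of the largest log2 fold changes of all members and did not pass. It ranged from 4.58 over a median of 7.68 to 9.51 in tg livers and from 3.83 over 5.58 to 9.60 in wt livers, so both genotypes covered almost the same span. Its log2 fold change was 1.38 (SE 0.749, adjusted p = 0.305, permutation p = 0.11). tg_1386_9 at 9.51 and wt_1386_4 at 9.60, the closest arrays of all, were the highest of their genotypes. In tg_1423_2-8_4, the array with the second highest *Cyp4a31*, *Cyp4a14* was at 5.34.

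*Cyp4f16*, of the Cyp4f subfamily that hydroxylates eicosanoids and long-chain fatty acids, was 1.53-fold higher in tg livers. The tg arrays read 4.83, 5.38 and 6.33 and the wt arrays 4.68, 4.98 and 5.15. 8 of 10 tg arrays lay above every wt array, and tg_1386_9 and tg_14231_6 lay among them. The means were 5.58 ± 0.54 (n = 10) and 4.96 ± 0.14 (n = 8), and the log2 fold change was 0.61 (SE 0.164, limma adjusted p = 0.0481, permutation p = 0.00108). The second probe set, near the median of all probe sets, gave 0.19 (SE 0.0899, adjusted p = 0.239), and one that *Cyp4f16* shares with *Cyp4f37* gave 0.51 (SE 0.202, adjusted p = 0.158). The 3 arrays with the highest *Cyp4f16*, tg_1423_2-8_4 (6.33), tg_1423_2-8_1 (6.26) and tg_1420_4 (6.26), were also those with the highest *Cyp4a31*. Without them the log2 fold change was 0.31 (adjusted p = 0.221) for *Cyp4f16* and 0.78 (adjusted p = 0.188) for *Cyp4a31*. These were the highest tg values of both genes, so leaving them out lowers the difference in any case and nothing is concluded from it.

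*Cyp4f13*, which lies on the same chromosome as *Cyp4f16*, had a negative log2 fold change and did not pass. Its tg values were 7.17, 7.81 and 8.15 and its wt values 7.93, 8.11 and 8.25, with 7 of 10 tg arrays below every wt array. The log2 fold change was -0.33 (SE 0.095, limma adjusted p = 0.0625, permutation p = 0.00203). With the number in the sample names as a block it passed (SE 0.0804, adjusted p = 0.0298), which makes 1 member lower in tg livers in place of 0. It was chosen for description after its value was seen. The other hydroxylases of the family did not pass. Log2 fold changes were 0.04 for *Cyp4f14* (adjusted p = 0.727), -0.09 for *Cyp4f15* (0.542), 0.08 for *Cyp4b1* (0.79) and -0.28 for *Cyp4v3*, a fatty acid hydroxylase tied to a retinal dystrophy (0.347). *Cyp4f18*, *Cyp4f39*, *Cyp4f41-ps* and *Cyp4x1* were under the median of all probe sets. The 12 measured ω-hydroxylases had a median of 0.00, and *Cyp4a31* and *Cyp4f16* were the 2 called, 0 being lower, where 2.98% of all genes were called higher and 0.967% lower.

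**Figure D2:**
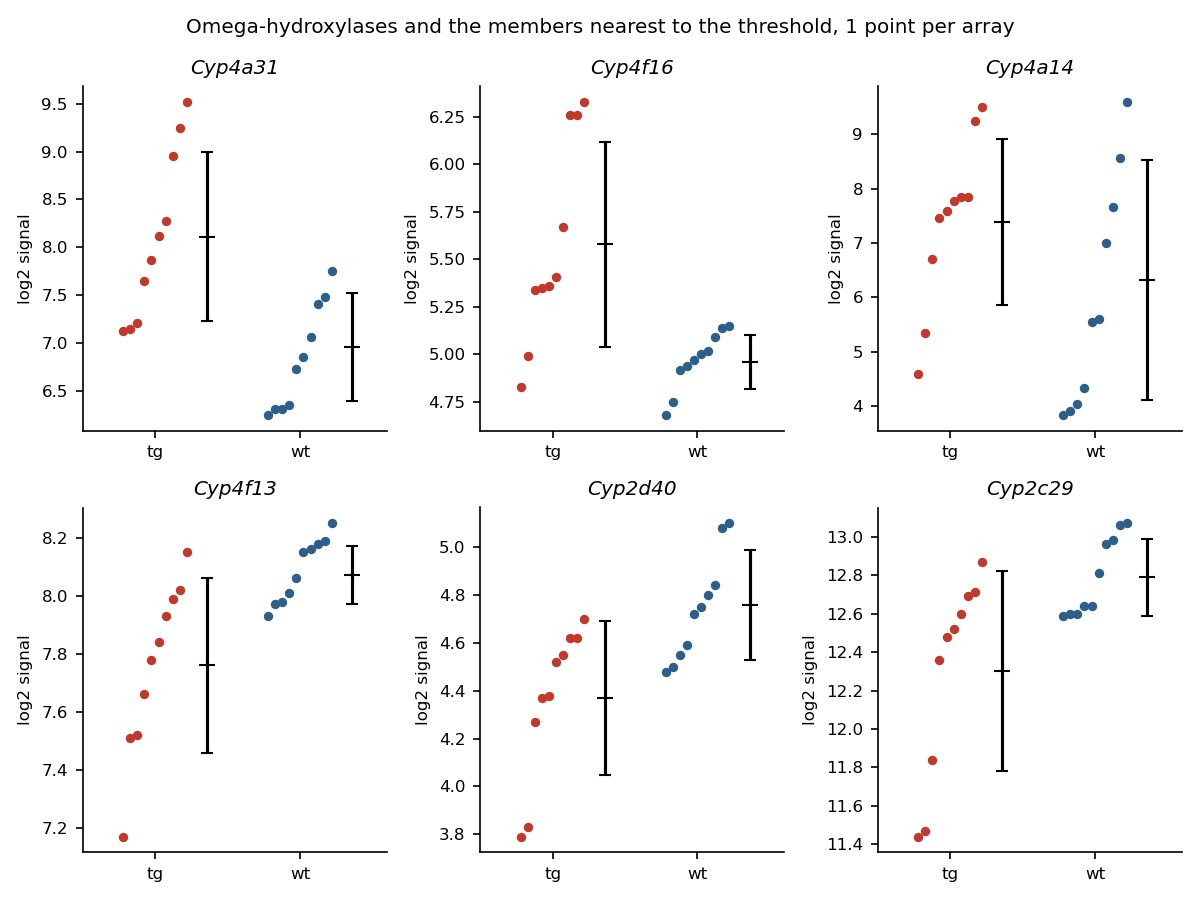
Log2 signal of 6 P450 genes on each array (points, sorted by value within a genotype) with mean ± SD as bars, for tg livers (n = 10) and wt livers (n = 8 after near-identical arrays are counted once). *Cyp4f16* shows a narrow wt group and 3 tg arrays at 6.26 to 6.33, while *Cyp4a14* spans the same range in both genotypes.

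Subfamily Cyp2c, which makes signalling epoxides from arachidonic acid besides oxidizing drugs, had 11 members, 8 with negative and 3 with positive log2 fold changes, and 0 passed limma. At an unadjusted p under 0.05, 1 was higher and 2 were lower, beside 13% and 12.2% of all genes. *Cyp2c55*, a CAR-responsive member, read 7.59, 8.45 and 10.49 in tg and 7.26, 7.79 and 9.09 in wt livers, a difference of 0.95 on the log2 scale (SE 0.362, adjusted p = 0.141, permutation p = 0.0269). The 3 tg arrays above every wt array were tg_1420_4, tg_1423_2-8_4 and tg_1423_2-8_1, at 10.49, 10.43 and 10.24. The other 7 tg arrays lay at or below 8.58, inside the wt range.

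*Cyp2c29*, a pericentral and CAR-responsive member, read 11.44, 12.50 and 12.87 in tg livers and 12.59, 12.72 and 13.07 in wt livers, with 6 of 10 tg arrays below every wt array. Its log2 fold change was -0.50 (SE 0.164, limma adjusted p = 0.0969, permutation p = 0.00667). The same 3 tg arrays were the lowest, at 11.44, 11.47 and 11.84, and without them it was -0.19 (adjusted p = 0.435). Leaving out the lowest tg arrays shrinks a negative difference in any case, so nothing is concluded from this value. *Cyp2c38* had -0.91 (SE 0.334, adjusted p = 0.13) and *Cyp2c39* -0.79 (SE 0.39, adjusted p = 0.259), with a single wt array, wt_1423_2-8_9, as the highest of 20 for both (10.16 and 9.71). *Cyp2c37* ran from 7.09 to 10.25 in tg and from 8.37 to 10.52 in wt livers (log2 fold change -0.50, SE 0.425, adjusted p = 0.535). Its lowest values, 7.09, 7.09 and 7.84, again belonged to tg_1423_2-8_1, tg_1423_2-8_4 and tg_1420_4. The pericentral *Cyp2c50* and *Cyp2c54* had -0.07 (adjusted p = 0.895) and -0.40 (adjusted p = 0.537), and *Cyp2c70*, which makes muricholic bile acids, -0.12 (adjusted p = 0.656). *Cyp2c23*, another epoxygenase, varied as widely in both genotypes, from 8.06 to 10.89 in tg and from 8.35 to 10.84 in wt livers (0.39, SE 0.425, adjusted p = 0.643). *Cyp2c68* differed by -0.09 (adjusted p = 0.742), and *Cyp2c65* lay below the probe set median in both genotypes.

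In subfamily Cyp2d, 8 members were measured, 0 passed limma and 2 were lower at an unadjusted p under 0.05, beside 12.2% of all genes. *Cyp2d13* had the lowest log2 fold change of the 56, -0.95 (SE 0.407, limma adjusted p = 0.193, permutation p = 0.0321). The wt values were close together, 8.11, 8.60 and 8.95, while the tg values ran from 4.68 over a median of 8.13 to 8.80. tg_1423_2-8_1 at 4.68, tg_1423_2-8_4 at 5.79 and tg_1420_4 at 6.98 made up the low end. Its second probe set gave -0.64 (SE 0.27, adjusted p = 0.187). *Cyp2d40* read 3.79, 4.45 and 4.70 in tg and 4.48, 4.73 and 5.10 in wt livers (-0.38, SE 0.116, adjusted p = 0.078). *Cyp2d10* differed by 0.07 (95% interval -0.05 to 0.18, adjusted p = 0.514). *Cyp2d22* had -0.09 (adjusted p = 0.468) and *Cyp2d26* 0.12 (adjusted p = 0.349), while *Cyp2d12* and *Cyp2d34* were under the median of all probe sets.

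The sex-biased members set single arrays apart more than genotypes. Growth hormone pulses of males keep *Cyp4a12a* and *Cyp2d9* on and *Cyp2b9*, *Cyp2b13*, *Cyp3a16* and *Cyp3a44* off. *Cyp4a12a* read 11.43 to 12.25 on 17 arrays, and 10.49 in tg_1423_2-8_4, 8.50 in tg_1423_2-8_1 and 7.34 in wt_1423_2-8_9. *Cyp2d9* was also lowest on these 3 arrays, at 10.64, 10.55 and 10.74, and read 11.78 to 12.82 on the rest. So 1 wt and 2 tg mice that share a number in their names had low male-biased genes, and the remaining mouse with that number, wt_1423_2-8_3, did not (11.81 and 12.82). Neither gene passed between genotypes. On the log2 scale *Cyp4a12a* differed by -0.14 (SE 0.559, limma adjusted p = 0.915) and *Cyp2d9* by -0.27 (SE 0.301, adjusted p = 0.654). The value of *Cyp4a12a* hung on single arrays of both genotypes, at 0.20 without tg_1423_2-8_1 and -0.62 without wt_1423_2-8_9.

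*Cyp2b9*, a female-biased and CAR-responsive gene, had the opposite order. It read 4.07, 6.92 and 10.04 in tg and 3.91, 4.61 and 10.84 in wt livers, and the top 4 arrays were wt_1423_2-8_9 (10.84), tg_1423_2-8_1 (10.04), tg_1423_2-8_4 (9.03) and tg_1420_4 (8.48). Its log2 fold change of 1.44 was the largest of the 56 and did not pass (SE 0.844, adjusted p = 0.347, permutation p = 0.137). *Cyp3a44* exceeded 9 in tg_1423_2-8_1 (10.12), tg_1423_2-8_4 (9.98), wt_1423_2-8_9, which lay between them, and wt_1407_5 (9.10), and wt_1420_7, the near-identical partner of the last, read 7.27. Its log2 fold change was 0.45 (SE 0.576, adjusted p = 0.698). *Cyp2b13* was at 8.45 in wt_1423_2-8_9 and at most 5.32 elsewhere (log2 fold change -0.20, SE 0.388, adjusted p = 0.807, and 0.21 without wt_1423_2-8_9). *Cyp3a16* was at 7.25 in tg_1423_2-8_1, 6.14 in tg_1423_2-8_4 and 4.02 in tg_1420_4 and at most 2.82 elsewhere (1.04, SE 0.533, adjusted p = 0.275). Both genotype means of *Cyp3a16* lay under the median of all probe sets. The probe set shared by the female-biased *Cyp2a4* and the pericentral *Cyp2a5* read 10.27, 11.31 and 13.27 in tg and 7.71, 9.97 and 13.45 in wt livers (1.58, SE 0.569, adjusted p = 0.123). The one shared by *Cyp3a41a* and *Cyp3a41b* had 13.08 in tg_1423_2-8_1, 12.68 in tg_1423_2-8_4 and 12.41 in wt_1423_2-8_9, with 7.82 to 10.86 on the others.

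**Figure D3:**
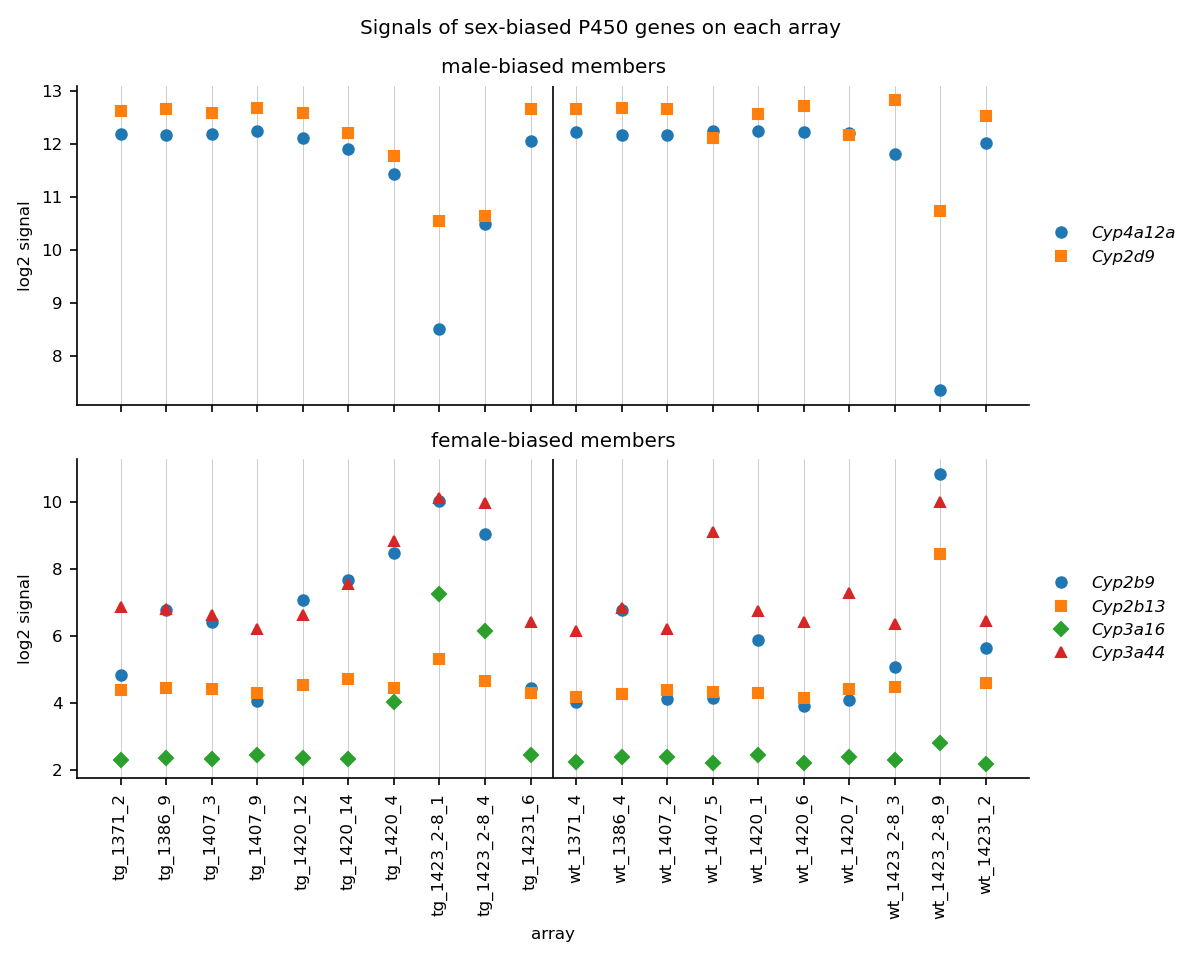
Log2 signal of male-biased (top) and female-biased P450 genes (bottom) on each of 10 tg and 10 wt arrays, divided by the vertical line; heights of different genes are not comparable. tg_1423_2-8_1 and wt_1423_2-8_9 stand low in *Cyp4a12a* (8.50 and 7.34) and high in *Cyp2b9* (10.04 and 10.84).

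Among the remaining Cyp2 subfamilies, 0 members passed limma. *Cyp2e1*, the ethanol-oxidizing enzyme of pericentral hepatocytes, varied least of the 56 within genotypes (SD 0.088), with 13.37, 13.55 and 13.68 in tg and 13.55, 13.64 and 13.79 in wt livers (log2 fold change -0.10, SE 0.045, adjusted p = 0.215). *Cyp2f2*, a periportal naphthalene oxidase, had -0.14 (95% interval -0.35 to 0.07, adjusted p = 0.452). *Cyp2a12*, a steroid hydroxylase, had 0.25 (SE 0.102, adjusted p = 0.166) and was higher in tg livers within each of the 6 numbers in the sample names, of which those of wt_1407 and wt_1420 mice share near-identical arrays. *Cyp2g1*, best known from the nose, also was higher within 6 of 6 (0.61, SE 0.262, adjusted p = 0.191), with 4.60, 5.09 and 6.67 in tg and 4.19, 4.88 and 5.84 in wt livers. *Cyp2b10*, the usual reporter of CAR activity, had 0.16 (SE 0.204, adjusted p = 0.685), with single high arrays in both genotypes (tg_1423_2-8_4 at 7.26 and wt_1423_2-8_9 at 7.21). Its 2 further probe sets gave 0.68 (adjusted p = 0.416) and 0.41 (adjusted p = 0.57). *Cyp2j5*, an epoxygenase, had -0.10 (adjusted p = 0.382), and its relatives *Cyp2j6* and *Cyp2j9* had 0.24 (adjusted p = 0.156) and -0.23 (adjusted p = 0.221). The vitamin D 25-hydroxylase *Cyp2r1* had -0.02 (adjusted p = 0.96) and *Cyp2u1*, a hydroxylase of long-chain fatty acids, -0.11 (adjusted p = 0.645). *Cyp2s1* was under the median of all probe sets, at 3.42 to 4.20, as were *Cyp2b19*, *Cyp2j11* and *Cyp2j13*.

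Of family Cyp1, *Cyp1a2*, a pericentral enzyme that oxidizes caffeine, read 10.71, 11.70 and 11.97 in tg and 11.08, 11.90 and 12.12 in wt livers (log2 fold change -0.22, SE 0.177, limma adjusted p = 0.511). *Cyp1a1* and *Cyp1b1*, which AhR ligands induce, had both means under the median of all probe sets, with values of 3.74 to 4.75 and 3.26 to 4.17. In family Cyp3, the broad drug oxidase *Cyp3a11* lay at 13.77 to 13.99 in tg livers and at 13.25 to 13.96 in wt livers (0.12, SE 0.0648, adjusted p = 0.314). *Cyp3a25* was lower in tg livers within each of the 6 numbers and did not pass (-0.20, SE 0.0804, adjusted p = 0.162). The difference was -0.45 between tg_1407 and wt_1407 and -0.29 between tg_1420 and wt_1420 mice, but -0.10 to -0.01 in the other numbers. wt_1407_5 (13.46) and wt_1420_7 (13.44), a near-identical pair, were the highest arrays. *Cyp3a13* had 0.16 (SE 0.289, adjusted p = 0.787).

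Grouped by the receptor or zone they are known for, the members gave 1 call. Of 3 AhR-responsive genes 0 passed limma (median -0.03), of 5 CAR-responsive genes 0 (0.16), of 3 PXR-responsive genes 0 (0.12) and of 2 PPARα-responsive genes 1 higher (1.32), where the median of all genes is -0.02. At an unadjusted p under 0.05, which 13% of all genes pass as higher and 12.2% as lower, 0 of the AhR-responsive genes differed, 1 of the CAR-responsive genes was higher and 1 lower, and 1 of the PXR-responsive genes was lower. Of 7 pericentral genes 0 passed, with 2 lower at an unadjusted p under 0.05, 6 negative log2 fold changes and a median of -0.22, and the periportal list holds *Cyp2f2* alone. The 4 female-biased genes, which include the weakly measured *Cyp3a16*, had a median of 0.74 and the 2 male-biased genes of -0.20. In each list 0 passed at an adjusted or unadjusted p under 0.05. 11 arachidonic acid epoxygenases had a median of -0.23, with 0 passed and, at an unadjusted p under 0.05, 2 higher and 3 lower. At this size of list these counts are not read as a result about the groups.

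Over the 42 members with a genotype mean at or above the median probe set, 4 arrays held most of the extreme values. tg_1423_2-8_1 was the lowest of the 20 arrays for 12 of them and the highest for 3. tg_1423_2-8_4 was the lowest for 6 and the highest for 7, and wt_1423_2-8_9 the highest for 7 and the lowest for 3. wt_1423_2-8_3 was the highest for 6 and the lowest for 2. All 4 share the same number in their names. The mean absolute deviation from the own genotype was 0.83, 0.79 and 0.83 for the first 3, 0.47 for tg_1420_4 and 0.24 to 0.51 for the other 16. *Cyp4a12a* and *Cyp2d9* were low in tg_1423_2-8_1 and wt_1423_2-8_9 alike, whereas *Cyp2c37*, *Cyp2c29* and *Cyp2d13* were low in tg_1423_2-8_1 (7.09, 11.47 and 4.68) and read 10.52, 13.06 and 8.26 in wt_1423_2-8_9.

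**Figure D4:**
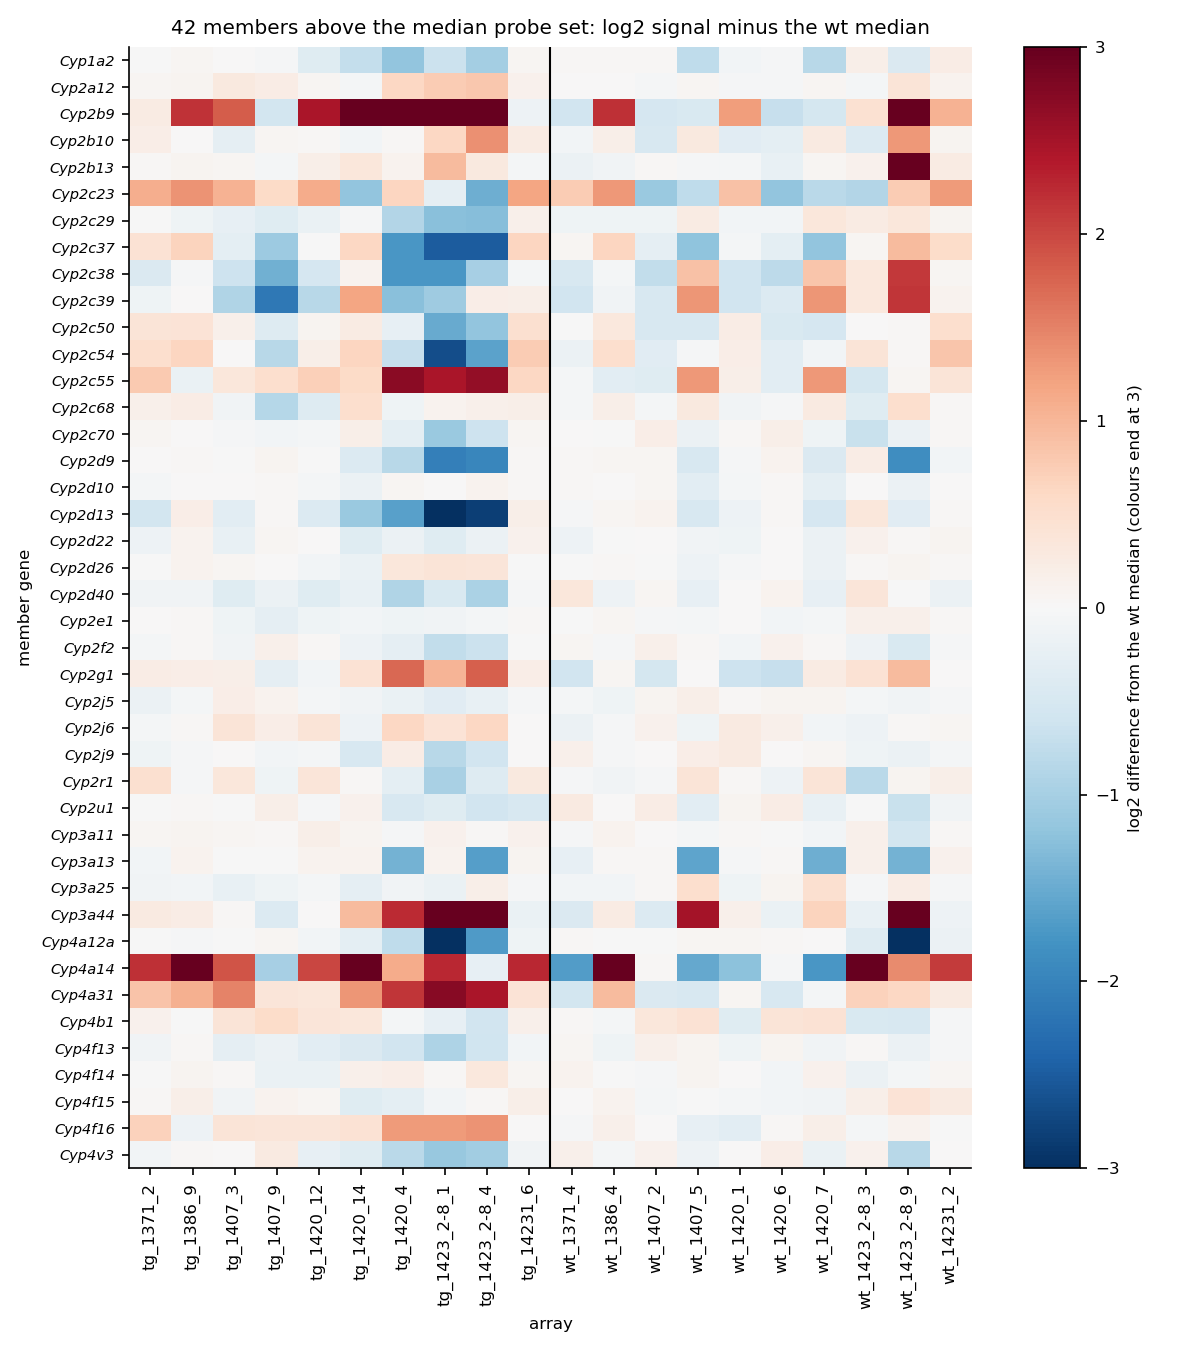
Log2 signal of 42 P450 genes minus the median of the wt arrays, one column per array, tg left and wt right of the line. tg_1420_4, tg_1423_2-8_1 and tg_1423_2-8_4 show low *Cyp2c37* and *Cyp2d13* with high *Cyp2c55* and *Cyp4f16*, and wt_1423_2-8_9 shares with them high *Cyp2b9* and low *Cyp2d9*.

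The 6 numbers in the sample names each occur in both genotypes, and differences are given here as the tg minus the wt mean within a number. *Cyp4a31* was higher in tg livers within 6 of 6, by 1.94 between tg_1423_2-8 and wt_1423_2-8 mice, 1.43 between tg_1420 and wt_1420, 1.39 between tg_1371 and wt_1371 and 1.38 between tg_1407 and wt_1407 mice, but by 0.15 between tg_14231 and wt_14231 and 0.12 between tg_1386 and wt_1386 mice. *Cyp4f16* was higher within 5 of 6, with 1.29 for the tg_1423_2-8 mice, 0.02 for tg_14231 and -0.31 for tg_1386. For *Cyp4f13* the differences ran from -0.70 (tg_1423_2-8) to 0.17 (tg_1386), with 5 of 6 negative. *Cyp2d13* differed by -3.37 between tg_1423_2-8 and wt_1423_2-8 mice and by -0.84 to 0.14 in the other numbers, and *Cyp2c38* by -2.59 and by -1.10 to 0.04. The near-identical pairs wt_1407_2 with wt_1420_6 and wt_1407_5 with wt_1420_7 each join these 2 numbers, so that their differences rest largely on the same wt profiles and the counts over 6 numbers are not counts of 6 independent comparisons. Each number holds 1 to 3 mice per genotype, and no test was made within a number.

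**Figure D5:**
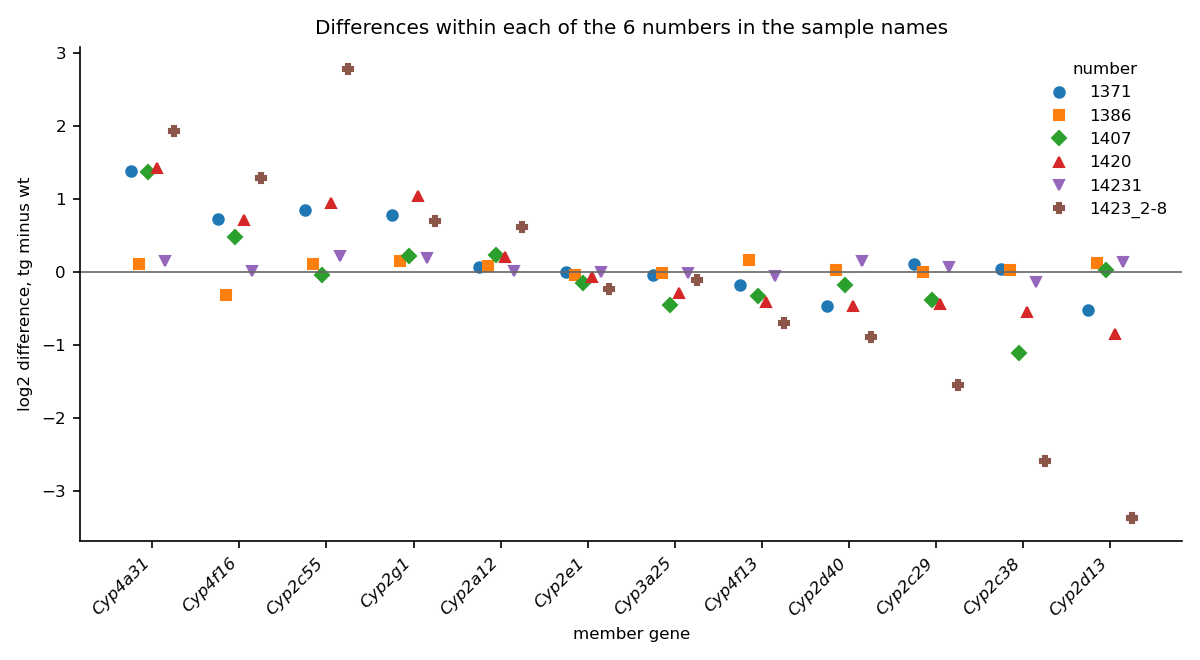
Difference of tg minus wt means on the log2 scale within each of the 6 numbers that sample names share between genotypes, for 12 P450 genes. *Cyp4a31* is above 0 for all 6, and the differences of *Cyp2c55* (2.78), *Cyp2c38* (-2.59) and *Cyp2d13* (-3.37) are widest between tg_1423_2-8 and wt_1423_2-8 mice.

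The partners and regulators of the P450 genes had 0 calls in limma. Among 11 measured electron donors and haem enzymes, 0 were higher and 1 was lower at an unadjusted p under 0.05, and P450 oxidoreductase itself, *Por*, was not analysed here. *Alas1*, the rate-limiting enzyme of haem synthesis, had the largest log2 fold change of them, 1.06 (SE 0.616, adjusted p = 0.343), with 11.90 in wt_1423_2-8_9, 11.71 in tg_1423_2-8_4 and 11.43 in tg_1423_2-8_1 as the highest values. Among 14 receptors and regulators, 1 was higher and 3 were lower at an unadjusted p under 0.05, beside 13% and 12.2% of all genes. *Ahr* had 0.35 (SE 0.115, adjusted p = 0.0904) and *Ppara* -0.28 (SE 0.0992, adjusted p = 0.115). *Nr1i3*, which encodes CAR, had -0.47 (SE 0.351, adjusted p = 0.465) and *Nr1i2*, which encodes PXR, 0.26 (SE 0.179, adjusted p = 0.437). *Rxra*, the shared partner of PPARα, CAR and PXR, had 0.10 (SE 0.0983, adjusted p = 0.616). *Nr1i3* was lowest in tg_1423_2-8_4 (5.40) and tg_1423_2-8_1 (6.11), and read 8.42 in wt_1423_2-8_9. All 10 genes of the growth hormone axis missed even an unadjusted p under 0.05.

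Of the 17 genes of other P450 families, which make bile acids, steroids and retinoids, 0 passed, 2 were lower at an unadjusted p under 0.05 and 15 had negative log2 fold changes (median -0.08). Over all genes, 12.2% were lower at an unadjusted p under 0.05, and 10404 of 18194 were negative (median -0.02). The counts of these 17 genes are not read as a result about them. *Cyp7b1*, an oxysterol hydroxylase that is male-biased in mouse liver, followed the arrays described above, with 5.32 in tg_1423_2-8_1, 6.60 in tg_1423_2-8_4, 6.62 in wt_1423_2-8_9 and 7.18 in tg_1420_4, and 9.33 to 12.34 on the other 16.

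Markers of other liver cells were measured beside the P450 genes, since in whole liver fewer cells of a type and less RNA per cell cannot be told apart. 5 of 8 macrophage markers passed upward, and the mean of the 8 was 7.60 to 8.37 in tg and 7.26 to 7.91 in wt livers. 1 of 9 hepatocyte markers (*Hpx*) and 1 of 6 endothelial markers (*Lyve1*) passed upward. The mean of the hepatocyte markers was 13.67 to 13.78 in tg and 13.56 to 13.67 in wt livers. Of 6 cholangiocyte, 6 stellate cell, 6 lymphocyte and 4 pancreas markers, 0 passed limma, and at an unadjusted p under 0.05, 1, 3, 0 and 0 were higher and 0, 0, 2 and 1 lower. Over all genes, limma called 2.98% higher and 0.967% lower, and 13% and 12.2% at an unadjusted p under 0.05. The mean of the cholangiocyte markers was 4.17 to 4.74 in tg and 3.96 to 4.32 in wt livers, highest in tg_1420_4. Their part in the values of *Cyp4a31* and *Cyp4f16* was not tested.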

How the data were processed

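Affymetrix arrays measured the liver RNA of 10 tg and 10 wt mice. The authors normalized the arrays by RMA (version not given in the sources used here) and deposited log2 values for 45101 probe sets, with 0 columns left without a sample. Of these probe sets, 34958 carry 1 symbol, 932 several and 9211 none. Groups follow the sample labels.

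limma 3.58.1 (R 4.3.3) was fitted to all probe sets and 20 arrays with genotype as the only term and default empirical Bayes settings. P values are two-sided and Benjamini-Hochberg adjusted across the whole table, and values under 0.05 were called. Permutation p values for single genes rest on 100000 relabelings of the 20 arrays. The functions were tested on simulated data.

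Members and gene lists were chosen with earlier results of these data known. Named are members that passed, the 5 largest differences in each direction above the median probe set, the member with the highest mean of each subfamily, and those of the receptor, sex and zonation lists. Others were added after their values were seen. Arrays sharing a number in their names correlated across genotypes after removal of genotype means (0.184 to 0.404 over 6 numbers, highest for its own number in all but the tg_1371 and wt_1371 arrays), so values with the number as a block are given where they change a call.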

Additional observations from a re-analysis of the deposited data

Results flagged for a closer look

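16 values among 76 groups of named members lay apart from the rest of their own genotype. Chance would give about 1 in 20 for independent, normally distributed groups. The groups share the same arrays and are not independent, so the count is not set against chance. The gap to the nearest array is given as a share of the group's whole range, over 10 tg arrays or 8 wt profiles. 9 of the 16 belong to wt_1423_2-8_9. This array had *Cyp4a12a* at 7.34, with 11.81 as the next lowest wt value (share 0.91), *Cyp2b13* at 8.45 over 4.61 (0.899), *Cyp2d9* at 10.74 under 12.15 (0.676) and *Cyp2b9* at 10.84 over 6.79 (0.593), so both male-biased genes were low and both of these female-biased genes high. It also was the lowest in the drug oxidase *Cyp3a11* (13.25 under 13.73, 0.677) and in *Cyp4v3* (11.05 under 11.71, 0.658), and the highest in *Cyp2a12* (12.41 over 12.12, 0.621), *Cyp3a16* (2.82 over 2.44, 0.604) and *Cyp2b10* (7.21 over 6.19, 0.6).

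3 of the 16 belong to tg arrays of the same number: *Cyp2b13* at 5.32 over 4.71 (0.59) and *Cyp4a12a* at 8.50 under 10.49 (0.532) in tg_1423_2-8_1, and *Cyp3a25* at 13.15 over 12.92 (0.489) in tg_1423_2-8_4. wt_1423_2-8_3 was apart in *Cyp1a1* (4.75 over 4.19, 0.635), in *Cyp2r1* (6.53 under 7.23, 0.592) and in *Cyp2c70* (12.24 under 12.72, 0.557). tg_14231_6 was highest in the dim *Cyp2s1* (4.20 over 3.80, 0.516).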

How the results depend on the processing

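*Cyp4a31* passed in 12 of the 20 fits without a single array (log2 fold change 1.10 to 1.37) and in 11 of 17 other alternatives (0.78 to 1.39). *Cyp4f16* passed in 2 of 20 (0.53 to 0.70) and in 6 of 17 (0.31 to 0.73). All of these kept their direction. The count of members higher in tg livers, 2 in the report, was 1 when empirical Bayes used trend and robust settings, when arrays were weighted, when a gene was given by the mean of its probe sets, when cross-hybridizing probe sets were dropped and with *Xist* as a covariate. It was 0 with near-identical wt arrays averaged, without the 4 arrays of the tg_1423_2-8 and wt_1423_2-8 mice, without tg_1420_4, tg_1423_2-8_1 and tg_1423_2-8_4, in the Wilcoxon test and in both alternatives chosen after seeing the data (without tg_1423_2-8_1 and wt_1423_2-8_9, and with near-identical wt arrays averaged and tg_1386_9 and wt_1386_4 left out). Without 1 array it was 0 to 2, and 0 without any one of tg_1407_3, tg_1420_4, tg_1423_2-8_1, tg_1423_2-8_4, wt_1407_2, wt_1407_5, wt_1420_6 and wt_1420_7. The count of members lower in tg livers, 0 in the report, was 1 (*Cyp4f13*) with the replicate block of the label number as a term, with the random replicate block, with only probe sets at or above the median mean and without tg_1386_9 and wt_1386_4. Without 1 array it was 0 to 3, with *Cyp4f13* and *Cyp2d40* lower without tg_1386_9, and *Cyp4f13*, *Cyp2d40* and *Cyp2c29* without tg_14231_6. The block changed no other call among the named members. Among named members that had not passed, 41 values changed sign over the alternatives that do not leave out a single array, and none of these passed. Without tg_1420_4, tg_1423_2-8_1 and tg_1423_2-8_4 these were *Cyp1a2* (0.02), *Cyp2b10* (-0.03), *Cyp2c37* (0.22), *Cyp2c50* (0.28), *Cyp2c54* (0.18), *Cyp2c70* (0.09), *Cyp2d9* (0.21), *Cyp2f2* (0.02), *Cyp2r1* (0.20), *Cyp2u1* (0.02), *Cyp3a44* (-0.43), *Cyp4a12a* (0.45) and *Cyp4f14* (-0.02). Without the tg_1423_2-8 and wt_1423_2-8 arrays they were *Cyp1a1* (0.01), *Cyp2b13* (0.12), *Cyp2c37* (0.13), *Cyp2c50* (0.26), *Cyp2c54* (0.08), *Cyp2r1* (0.05) and *Cyp4f14* (-0.02), and without tg_1423_2-8_1 and wt_1423_2-8_9 *Cyp2b13* (0.12), *Cyp2c50* (0.10), *Cyp2r1* (0.09), *Cyp2s1* (0.01) and *Cyp4x1* (-0.01). The medians beside the Wilcoxon test gave *Cyp1a1* (0.01), *Cyp2b13* (0.09), *Cyp2c50* (0.12), *Cyp2c54* (0.09), *Cyp2s1* (0.01) and *Cyp4x1* (-0.00). Array weights gave *Cyp2c50* (0.08) and *Cyp2r1* (0.11), the mean of probe sets *Cyp2u1* (0.10), median centring *Cyp2r1* (0.00), quantile normalization *Cyp2s1* (0.01) and *Xist* as a covariate *Cyp4x1* (-0.01). Averaging near-identical wt arrays turned *Cyp2r1* (0.02), and with tg_1386_9 and wt_1386_4 also out *Cyp2r1* (0.01) and *Cyp4a12a* (0.02), while leaving out those 2 arrays alone turned *Cyp4x1* (-0.01). Without 1 array, signs changed for *Cyp1a1* (-0.07 to 0.03), *Cyp2b13* (-0.29 to 0.21), *Cyp2c50* (-0.14 to 0.08), *Cyp2r1* (-0.11 to 0.08), *Cyp2s1* (-0.08 to 0.00), *Cyp4a12a* (-0.62 to 0.20) and *Cyp4x1* (-0.02 to 0.04). The causes were not tested. Scaling moved the split over all probe sets, with 850 higher and 299 lower as deposited, 682 and 476 after quantile normalization and 969 and 156 after median centring, while both members called stayed called in each. Signals near the median of all probe sets limit what can be read for 14 of 56 members.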
